A study of Mus musculus with 16 samples.

Results

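The ubiquitin enzyme and ligase genes described here are the genes of 10 name families (Ube2, Ube3, Cul, Fbxl, Fbxo, Fbxw, Klhl, Rnf, Trim and Usp) that held a region of Dazl crosslinking in their span. They were chosen by gene symbol in RefSeq's gene table for mm10 (GRCm38.p6). The rule used no measured values beyond the presence of a region, but earlier results of these data were known. The families count 381 genes in that table, of which 369 are protein-coding. A total of 71 of them held at least 1 region, out of 3202 genes with a region in the series, and together they held 162 of the 7837 regions placed in genes.

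The libraries are KIN-CLIP libraries, in which cells are exposed to an ultraviolet laser for a set time and the RNA that became linked to Dazl is sequenced. All came from 1 clonal line of GC-1 spg cells, a mouse line of spermatogonial origin, in which the germ cell RNA-binding protein Dazl is induced with doxycycline. The 12 libraries analysed combine a laser power of 2.6 or 1 mW, a Dazl level of 4.2x or 1x, and crosslinking for 30, 180 or 680 s, with 1 library per condition and no replicates. The series also lists 4 samples of 0 s, which were not analysed here, so the values below have no uncrosslinked background.

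Ubiquitin is attached to proteins by a relay in which an activating enzyme (E1) passes it to a conjugating enzyme (E2), which works with a ligase (E3) that selects the substrate. The Ube2 genes encode E2 enzymes, the Ube3 genes HECT ligases, most Rnf and Trim genes RING ligases, and the cullins the scaffolds of multisubunit ligases that use F-box (Fbxl, Fbxo, Fbxw) or Kelch (Klhl) proteins as substrate adaptors, while Usp enzymes remove ubiquitin again. In the testis this system is known for histone ubiquitination and protein turnover during sperm formation, and Dazl is known to bind GUU-containing sites, many of them in the 3' part of mRNAs.

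Each library is a list of positions with a whole-number value that the authors call normalized coverage. Coverage of a region or gene is the sum of these values over its positions, so a gene with more regions has a larger sum, and a comparison between genes is made below per nucleotide of region. All 8338 regions of the series, placed in genes or not, had a value in each of the 12 libraries, and none was below 1. Whether a lowest value stands for crosslinking was not stated. The 162 regions thus add at least 162 to every library sum, and ratios to a low sum depend on this. Most of the regions were short, with 138 of the 162 exactly 17 nt long and a range from 15 to 75 nt. Their position in the gene could be given for the 125 regions in genes whose strand is in the promoter table. A share of 66.4% (83 regions) lay within 3000 nt of the annotated 3' end, against 63.6% of the regions of other genes. An even spread along the same gene spans would give 15.8% for the ubiquitin genes. These spans include introns, so the 15.8% is not the share for an even spread along the mRNA. Within 1000 nt of the 5' end lay 10 regions, or 8.0%, against 6.57% in other genes.

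A set of 5 regions lay inside a RefSeq start window (GRCm38.p6), where the sequence could be read. Relative to the start site of the window, the regions of Rnf135, Usp25 and Fbxw7 began upstream, at -10, -9 and -212 nt. Those of Klhl11 and Rnf223 began at 8 and 6 nt. Distances from the 5' end given elsewhere are taken from the end of the gene span instead. They are shown because 2 (Rnf135 and Klhl11) belong to genes that rose with time relative to their libraries and 3 to genes that did not pass that test. Capitals mark the region, lower-case letters the 6 flanking bases on each side, and all are written 5' to 3' on the strand of the gene.
Rnf135 (chr11:80183859-80183875, plus strand): tgttgcCGGGGAAGTTAGTAGGAcaaggc
Klhl11 (chr11:100472759-100472775, minus strand): tcagacTTGCCGCACCGTTCGGAagctga
Usp25 (chr16:77014060-77014076, plus strand): cgggccCGGTAGAGCGCGACAGGcggggc
Fbxw7 (chr3:84815365-84815381, plus strand): cgggacTCCAGGAGTTCTCGGCGccccct
Rnf223 (chr4:156130520-156130535, plus strand): tgagaaTTCACACCCGTCTCAGtcagcc
The letters GTT, the DNA form of GUU, occurred in 3 of these 5 regions (Rnf135, Klhl11 and Fbxw7), and the letters of the same motif on the other strand, AAC, in 0. Over all genes, 28 of 65 regions of at most 17 nt in a start window of their own gene held GTT (43.1%) and 14 held AAC (21.5%), whereas 16.5% of all 17-nt stretches of the start windows held GTT and 16.5% held AAC. A match describes the letters and is not a measured binding site.

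Among the E2 genes, Ube2b had the second highest summed coverage of the ubiquitin genes and Ube2r2 the sixth. Ube2b encodes a Rad6-type E2 that acts in DNA damage tolerance and is needed for normal mouse sperm formation. Its 11 regions summed to 299, 318 and 394 at 30, 180 and 680 s in the 2.6 mW, 4.2x series, and to 156, 145 and 315 at 2.6 mW and 1x. At 1 mW they summed to 109, 75 and 220 with 4.2x Dazl and to 26, 20 and 118 with 1x. The highest library was thus the one with the most light, time and Dazl, and the lowest was the 180 s library at 1 mW and 1x. Ube2r2, a Cdc34-type E2 that works with cullin ligases, had 95, 105 and 170 in the 2.6 mW, 4.2x series and 6, 6 and 51 in the 1 mW, 1x series, from 3 regions. The other E2 genes (Ube2k, Ube2q1, Ube2o and Ube2h) had 1 or 2 regions each and a mean coverage over the libraries between 7.92 and 17.7. The HECT ligase gene Ube3b, the only Ube3 gene with a region, had 87, 84 and 143 at 2.6 mW and 4.2x, and 13, 6 and 44 at 1 mW and 1x.

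The RING genes were the largest group, with 20 Rnf genes and 60 regions, and Rnf128 was the highest of all ubiquitin genes, at rank 61 of 3202. Rnf128 encodes a membrane ligase known from T cell anergy. Its 10 regions summed to 287, 298 and 409 at 2.6 mW and 4.2x, to 185, 169 and 338 at 2.6 mW and 1x, to 145, 88 and 246 at 1 mW and 4.2x, and to 22, 17 and 122 at 1 mW and 1x. Next among the Rnf genes came Rnf4, a ligase that recognises proteins carrying SUMO chains, with 212, 229 and 280 at 2.6 mW and 4.2x and 11, 10 and 92 at 1 mW and 1x. In Rnf128 and Rnf4, as in Ube2b, the highest library was that of 680 s, 2.6 mW and 4.2x and the lowest that of 180 s, 1 mW and 1x. Rnf6 had 149, 142 and 171 at 2.6 mW and 4.2x, 68, 52 and 128 at 2.6 mW and 1x, 95, 49 and 111 at 1 mW and 4.2x, and 6, 5 and 61 at 1 mW and 1x. For Rnf6 the 30 s library at 1 mW and 4.2x was higher than its 30 s library at 2.6 mW and 1x, unlike for Rnf128, Rnf4 and Ube2b. Rnf7, the RING subunit of Cul5 ligases, had a mean of 63.3, and Rnf11 and Rnf187 had means of 57.4 and 50.6. At the other end, Rnf213, Rnf223, Rnf149, Trim7, Trim9 and Klhl31 stood at the lowest listed region value in each of 3 libraries (680 s at 1 mW and 4.2x, 680 s at 2.6 mW and 1x, and 680 s at 2.6 mW and 4.2x) and reached at most 9 in the 12 libraries. Rnf213 and Fbxo10 each rest on a single region that also lies in the span of a long noncoding RNA gene, and Trim7 on one that also lies in the span of a pseudogene.

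Of the 14 Trim genes, Trim17 had the highest sum, with 91, 97 and 120 at 2.6 mW and 4.2x and 10, 10 and 40 at 1 mW and 1x. Per nucleotide of region, Trim2, a ligase known for its role in neurons, was the highest of all 71 genes. Its only region had 79, 71 and 79 at 2.6 mW and 4.2x, 51, 43 and 74 at 2.6 mW and 1x, 56, 23 and 55 at 1 mW and 4.2x, and 1, 1 and 37 at 1 mW and 1x. That is a mean of 2.79 per nucleotide, against 1.26 for Fbxl2 in second place and a median of 0.652 for the 71 genes and 0.632 for all genes. The ubiquitin genes thus had about the coverage per nucleotide of other genes, with 1 gene standing apart.

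The cullin scaffolds with a region were Cul4a and Cul4b, which pair with the adaptor Ddb1. Cul4a had 98, 91 and 98 at 2.6 mW and 4.2x, 60, 52 and 81 at 2.6 mW and 1x, 32, 23 and 56 at 1 mW and 4.2x, and 6, 5 and 25 at 1 mW and 1x. At the strongest conditions its value was therefore the same at 680 and at 30 s. Among the 15 F-box genes the highest of each family were Fbxl7 (mean 37.1), Fbxw4 (33.2) and Fbxo3 (28.0). The 3 Kelch genes were Klhl42, Klhl11 and Klhl31, with means of 24.5, 13.5 and 4.83. Among the 10 deubiquitinase genes, Usp14, whose product works on the proteasome, had 188, 180 and 218 at 2.6 mW and 4.2x and 20, 12 and 75 at 1 mW and 1x, and Usp22, the deubiquitinase of the SAGA complex, had 67, 74 and 89 and 3, 3 and 28 in these 2 series.

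**Figure D1:**
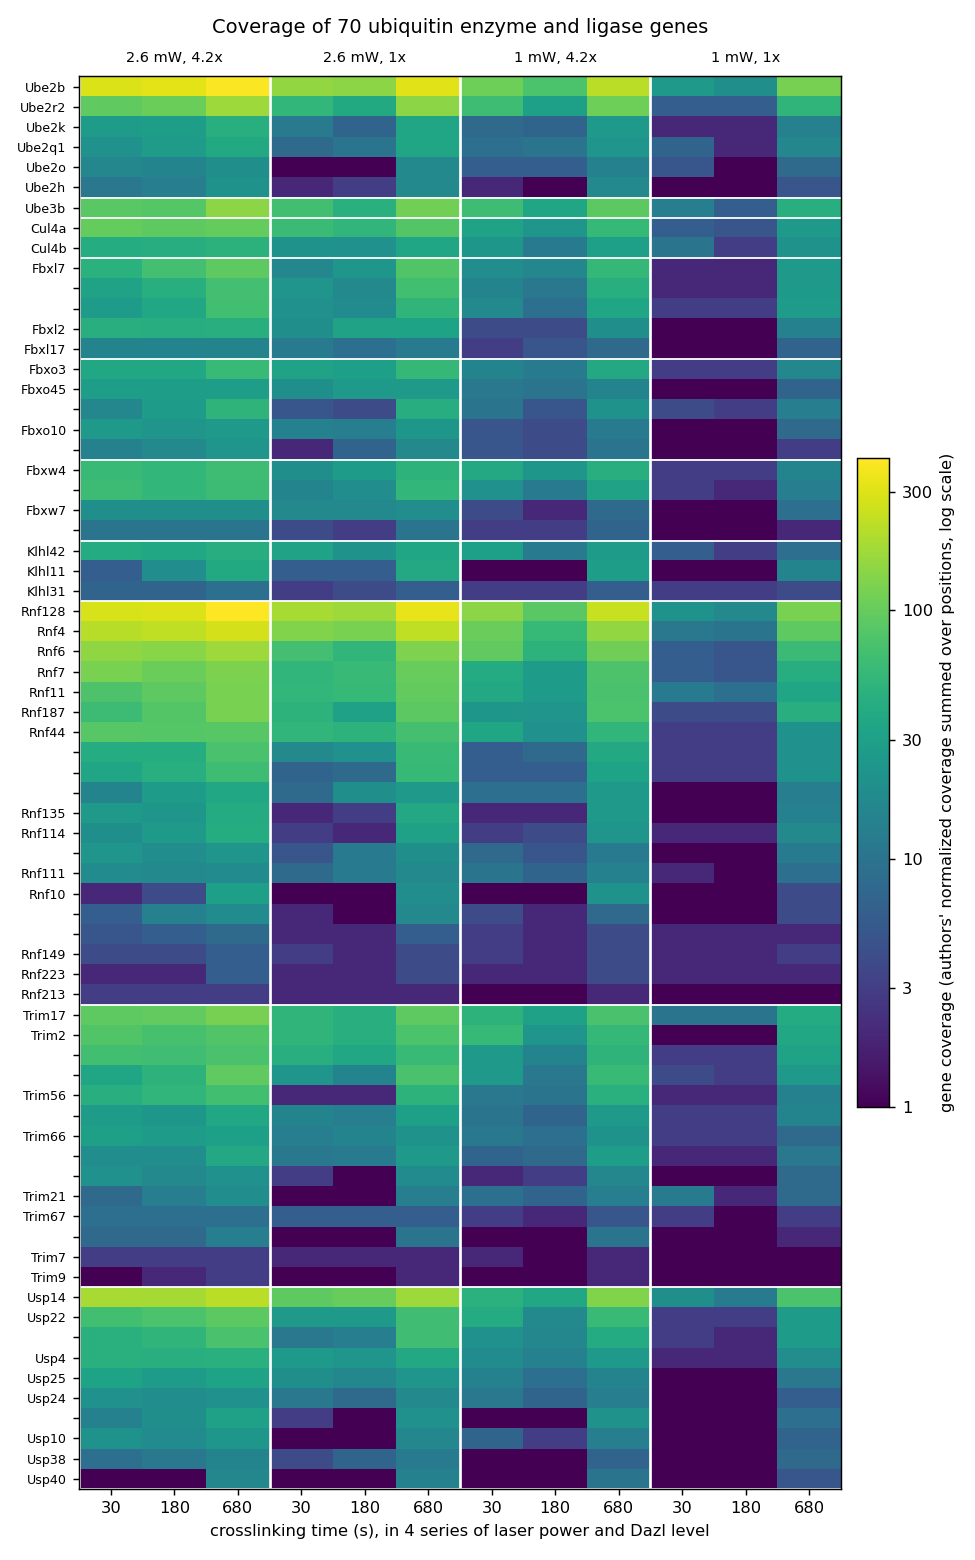
Coverage of 70 of the 71 genes (rows, grouped by family and ordered by mean within it, with names for genes described in the text) in the 12 libraries (columns, times within 4 series of laser power and Dazl level), on a log colour scale. Rnf128 and Ube2b reach 409 and 394 at 680 s, 2.6 mW and 4.2x, and most rows are at or near 1 per region at 30 and 180 s, 1 mW and 1x.

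Taken over all 71 genes, coverage was close to that of the whole series. Median mean coverage was 16.9, against 16.3 for all genes, 47.9% had a single region, against 49.2%, and the 5 highest genes held 33.4% of the summed mean coverage. The genes held between 1.91% and 2.04% of the gene coverage of a library, in all 12 libraries. They are 2.22% of the genes and hold 2.07% of the regions. A share of 19.2% of the coding genes of these families had a region, against 14.5% of the 21896 coding genes in the annotation. RNA levels of these genes were not measured in these libraries, and in a bulk lysate binding in fewer cells and less binding per cell cannot be told apart. Of 10 germ cell markers, Dazl among them, only Sall4 had a region (mean 1.67). Regions were also found in 2 of 5 Sertoli, 0 of 5 Leydig, 0 of 4 macrophage and 1 of 3 endothelial markers. All 4 peritubular and fibroblast markers had a region, with a median of 21.25 over the 4 means and the highest, 715.2, for Col1a1. A region shows crosslinking to Dazl and not the RNA level of a marker.

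At matched laser power and time, coverage was higher with 4.2x than with 1x Dazl for most ubiquitin genes, from 56 of 71 at 180 s and 1 mW (the other 15 were equal) to 70 of 71 at 680 s and 2.6 mW. Their summed coverage at 30 s and 1 mW was 1432 with 4.2x and 281 with 1x, a ratio of 5.10, against 4.99 for all genes. At 680 s and 2.6 mW it was 4558 with 4.2x and 3686 with 1x, a ratio of 1.24, the same as for all genes. The ratio thus ran close to that of all genes in all 6 pairs. With limma on log2(value + 3), a scale that understates the change of low genes, 62 of 71 genes rose at an adjusted p below 0.05 (Benjamini-Hochberg over 3202 genes), against 82.4% of all genes, and 0 fell. The median change was 0.93, against 0.88 for all genes. Because each condition is 1 library, the standard errors and p-values measure departures from an additive model of the 3 factors. With the 4 libraries of 30 s left out, 27 genes passed (38.0%), against 36.7% of all genes.

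Trim56, a ligase of antiviral signalling, had the largest change with Dazl level. It had 44, 52 and 66 at 30, 180 and 680 s with 4.2x Dazl at 2.6 mW, against 2, 2 and 49 with 1x. At 1 mW it had 11, 10 and 45 with 4.2x, against 2, 2 and 14 with 1x. The 4.2x library was higher in every pair, and the ratio between the libraries of a pair was larger at 30 and 180 s than at 680 s at both laser powers. Its log2 change was 1.91 ± 0.30 (SE; limma adjusted p = 9.9e-07). Rnf6 changed by 1.65 ± 0.35 (limma adjusted p = 0.00011) and Fbxw4 by 1.49 ± 0.31 (limma adjusted p = 6.7e-05). Among the 9 genes that did not pass were Fbxl17, Fbxw7, Klhl11, Klhl31, Rnf223, Trim67, Usp38 and Usp40. Fbxw7, the adaptor that targets cyclin E and Myc, had 20, 20 and 20 with 4.2x at 2.6 mW, against 17, 17 and 19 with 1x, and its 680 s library at 1 mW had 8 with 4.2x and 9 with 1x.

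Scaling each library to the same gene total asks whether a gene departs from the shift of its library. On scaled values 0 of 71 genes passed for Dazl level in limma, as did 0.0% of all genes in either direction, and 11 had an unadjusted p below 0.05, against 538 of all genes (16.8%). The largest scaled changes were those of Trim56 (0.96 ± 0.31, limma adjusted p = 0.22) and Trim2 (0.63 ± 0.42, limma adjusted p = 0.37). The scaling moved the median change of all genes to -0.07.

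**Figure D2:**
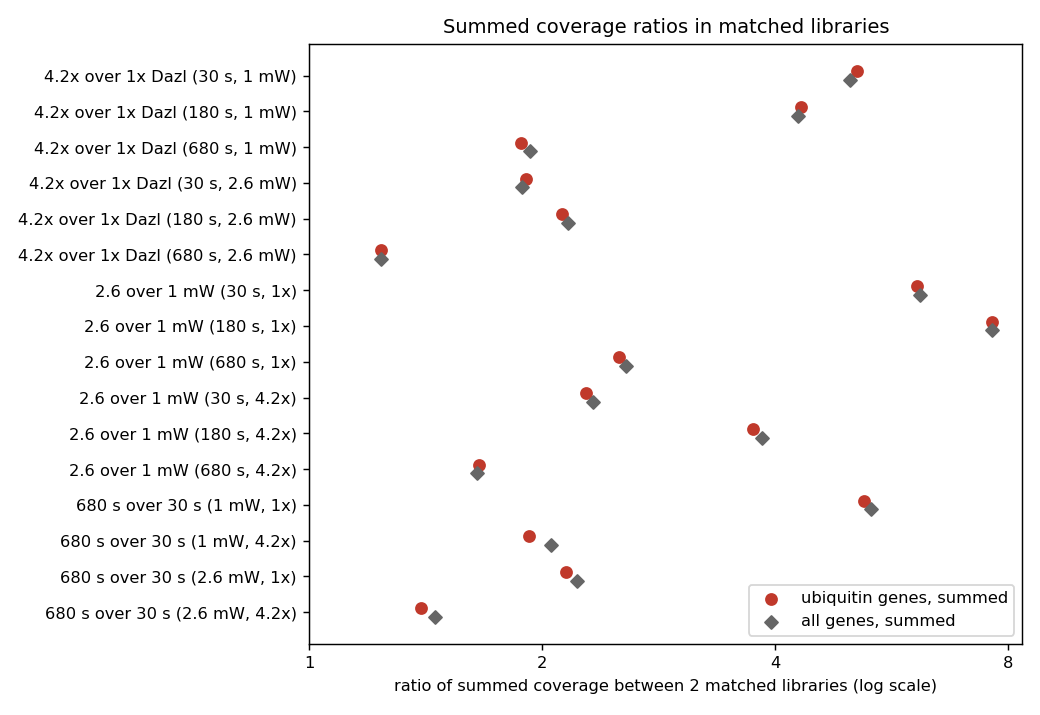
Ratio of summed coverage between 2 libraries that differ in 1 factor (horizontal log axis), for the 71 ubiquitin genes (circles) and for all 3202 genes (diamonds). The ratios run from 1.24 (4.2x over 1x at 680 s and 2.6 mW) to 7.62 (2.6 over 1 mW at 180 s and 1x), and the 2 symbols lie close together in each pair.

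As deposited, laser power gave more calls than Dazl level or time. Summed coverage of the ubiquitin genes at 180 s and 1x Dazl was 1616 at 2.6 mW and 212 at 1 mW, a ratio of 7.62, and at 680 s and 4.2x it was 4558 at 2.6 mW and 2754 at 1 mW, a ratio of 1.66, against 7.62 and 1.65 for all genes. In limma 68 of 71 genes rose with laser power, against 93.4% of all genes, and 0 fell. The median change was 1.26, against 1.22 for all genes.

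Fbxl2, an F-box adaptor, had the largest change. It had 43, 42 and 43 at 2.6 mW with 4.2x Dazl, against 4, 4 and 20 at 1 mW, and with 1x Dazl 20, 32 and 33 at 2.6 mW, against 1, 1 and 14 at 1 mW. The 6 libraries of 2.6 mW reached from 20 to 43 and those of 1 mW from 1 to 20, so that the groups met at 20. Its log2 change was 2.19 ± 0.29 (SE; limma adjusted p = 3.0e-09). Rnf44, Rnf4 and Cul4a followed, with 1.94, 1.94 and 1.89 as deposited. Relative to the library totals, on scaled values, Fbxl2 changed by 1.00 and did not pass. Fbxl2 also has 2 regions that lie in the span of Ubp1 as well and were left out, because the files carry no strand and overlapping genes cannot be told apart.

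Rnf223, Ube2o and Trim21 did not pass for laser power. Trim21, the cytosolic antibody receptor with ligase activity, had 8, 13 and 19 at 2.6 mW with 4.2x Dazl, against 9, 7 and 13 at 1 mW. With 1x Dazl it had 1, 1 and 13 at 2.6 mW, against 12, 2 and 8 at 1 mW. The 2.6 mW library was lower in 3 of 6 pairs, and Trim21 was the only one of the 71 genes whose fitted change with laser power was below 0 as deposited, -0.11 ± 0.26 (limma adjusted p = 0.67). On scaled values 0 of 71 genes passed for laser power in limma, as did 0.0% of all genes in either direction. An unadjusted p below 0.05 was reached by 16 genes, against 927 of all genes (29.0%).

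The response to Dazl level was smaller at 2.6 mW than at 1 mW for the summed coverage at 30, 180 and 680 s, with ratios of 1.90, 2.12 and 1.24 at 2.6 mW and of 5.10, 4.32 and 1.88 at 1 mW. The test of this difference gene by gene, the product of laser power and Dazl level in limma, gave 0 ubiquitin genes as deposited and 0 on scaled values. Unadjusted p-values below 0.05 were reached by 14 and 23 of the 71 genes, against 15.1% and 26.6% of all genes. The calls among all genes were 0.0312% lower and 0.0% higher as deposited, and 0.187% lower and 0.0312% higher on scaled values. The nearest to the threshold was Rnf114 on scaled values, at 1.72 (limma adjusted p = 0.058). Rnf114, a RING ligase, had 20, 25 and 41 with 4.2x Dazl at 2.6 mW, against 3, 2 and 31 with 1x, and 3, 4 and 23 with 4.2x at 1 mW, against 2, 2 and 17 with 1x. With the 680 s library at 1 mW and 1x left out, 20 genes passed as deposited (1 higher and 19 lower, 28.2% of the genes), against 26.9% of all genes. On scaled values 34 then passed (26 higher and 8 lower, 47.9%), against 48.0% of all genes. The count of 0 thus changed without that library, and most calls were lower as deposited but higher on scaled values. The cause was not tested. On scaled values 12, 3 and 2 genes passed when the 680 s library at 2.6 mW and 1x, at 1 mW and 4.2x, or at 2.6 mW and 4.2x was left out, against 11.6%, 6.53% and 1.5% of all genes. As deposited 1 passed in the last case, against 1.34% of all genes.

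**Figure D3:**
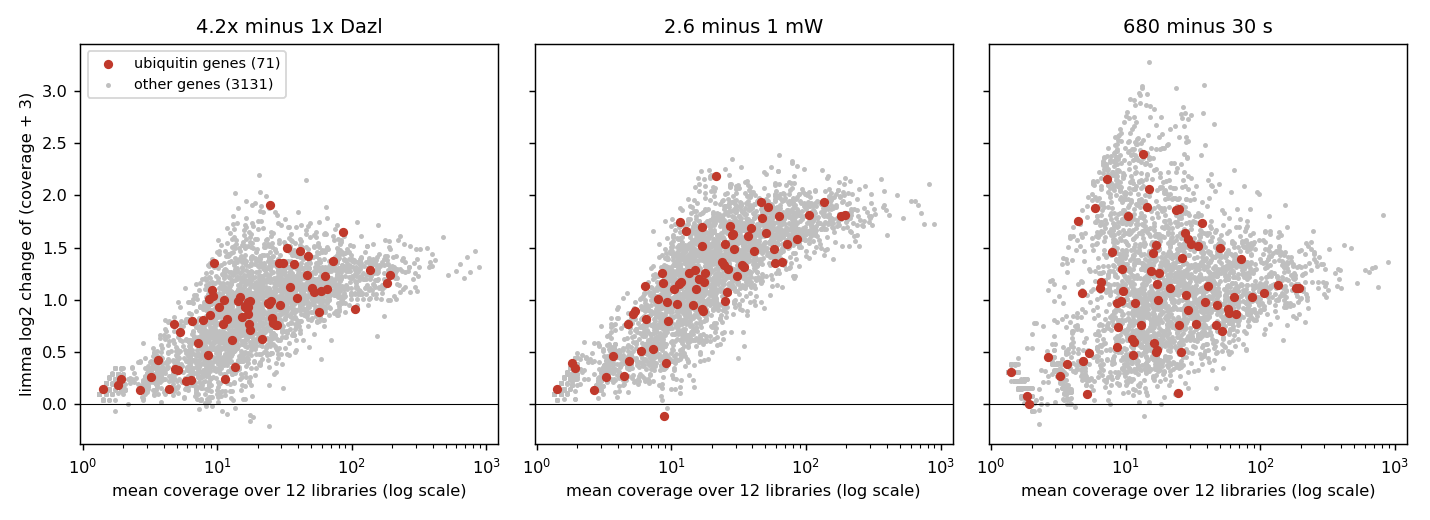
Limma log2 change of (coverage + 3) as deposited (vertical) against mean coverage over the 12 libraries (horizontal log axis), for 4.2x minus 1x Dazl, 2.6 minus 1 mW and 680 minus 30 s. The 71 ubiquitin genes (large red points) lie within the spread of the 3131 other genes (small grey points), with Trim21 below 0 in the laser panel and Klhl11 highest of the red points in the time panel.

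Changes with Dazl level and laser power were larger in genes of higher coverage, so each ubiquitin gene was also set against the median change of all genes in its bin of mean coverage, out of 10 bins with nearly equal numbers of genes. For Dazl level 35 of 71 genes lay above that median, with a median difference of 0.00. For laser power 40 of 71 lay above it, with a median difference of 0.02. For 680 s against 30 s 31 of 71 lay above it, with a median difference of -0.05. The middle 50% of these differences ran from -0.08 to 0.21 for Dazl level, from -0.15 to 0.18 for laser power, and from -0.29 to 0.42 for time. Fitted changes of single genes thus spread more in time than in the other comparisons, while the group followed genes of equal coverage. The time term rests on fewer libraries per level than the other terms, so its standard errors are larger.

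Coverage of the ubiquitin genes was not higher at 180 s than at 30 s in most series. The sum was 3430 at 180 s and 3266 at 30 s at 2.6 mW and 4.2x, and 1616 at 180 s and 1715 at 30 s at 2.6 mW and 1x. At 1 mW it was 915 at 180 s and 1432 at 30 s with 4.2x, and 212 at 180 s and 281 at 30 s with 1x. The ratios of these sums were 1.05, 0.942, 0.639 and 0.754, against 1.07, 0.932, 0.647 and 0.754 for all genes. For 180 s against 30 s, limma called 0 of 71 genes as deposited and 0 on scaled values, and 0.0% of all genes in either direction. Unadjusted p-values below 0.05 numbered 0 and 2 among the ubiquitin genes and 5 and 26 among all genes.

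By 680 s coverage was higher in all 4 series. The ratio of the summed coverage at 680 s to that at 30 s was 1.40 at 2.6 mW and 4.2x, 2.15 at 2.6 mW and 1x, 1.92 at 1 mW and 4.2x, and 5.21 at 1 mW and 1x, against 1.45, 2.22, 2.06 and 5.32 for all genes. In limma 51 of 71 genes rose at 680 s against 30 s as deposited, against 73.0% of all genes, and 0 fell. The median change was 1.03 for the ubiquitin genes and 1.03 for all genes. Both cullins were among the 20 genes that did not pass, with 0.70 ± 0.40 for Cul4a (limma adjusted p = 0.099) and 0.50 ± 0.36 for Cul4b (limma adjusted p = 0.19). The others were Ube3b, Usp4, Usp24, Usp25, Fbxl17, Fbxo45, Fbxw4, Fbxw7, Klhl31, Klhl42, Rnf44, Rnf111, Rnf149, Rnf213, Trim2, Trim7, Trim66 and Trim67. A slope on log2 time in place of the 680 s term called 28 genes (39.4%), against 38.2% of all genes.

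On scaled values 5 of 71 genes rose at 680 s against 30 s in limma, against 9.74% of all genes, and 1 fell, against 1.56%. Among the 5 were Klhl11, Rnf135, Rnf10 and Fbxl7, and the 1 that fell was Klhl42. As shares these are 7.04% and 1.41% of the ubiquitin genes, close to what the shares of all genes give for 71 genes. The 6 calls became 2 or 3 when the 30 s or 680 s library at 2.6 mW and 4.2x, at 2.6 mW and 1x, or at 1 mW and 4.2x was left out, against 3.72% to 7.56% of all genes, and quantile normalization gave 7 higher and 7 lower, against 11.9% and 10.5%.

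Klhl11, a Kelch adaptor of Cul3 ligases, had 6, 19 and 39 at 30, 180 and 680 s at 2.6 mW and 4.2x, 6, 6 and 38 at 2.6 mW and 1x, 1, 1 and 29 at 1 mW and 4.2x, and 1, 1 and 15 at 1 mW and 1x. The 680 s libraries (15 to 39) all lay above the 30 s libraries (1 to 6). The scaled log2 change was 1.47 ± 0.29 (SE; limma adjusted p = 0.0063). Its 1 region is the one shown above, 7 nt from the annotated 5' end. Rnf135, a ligase that activates the RNA sensor RIG-I, had 26, 24 and 40 at 2.6 mW and 4.2x, 2, 3 and 38 at 2.6 mW and 1x, 2, 2 and 26 at 1 mW and 4.2x, and 1, 1 and 14 at 1 mW and 1x. Its 30 s library at 2.6 mW and 4.2x was already above the 680 s library at 1 mW and 1x, so its groups overlap, and the scaled change was 1.19 ± 0.36 (limma adjusted p = 0.040). Rnf135 passed in 11 of 20 alternatives, with a limma adjusted p of up to 0.15.

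Rnf10, a RING ligase that acts on the small ribosomal subunit in human cells, had 2, 4 and 30 at 2.6 mW and 4.2x, 1, 1 and 19 at 2.6 mW and 1x, 1, 1 and 22 at 1 mW and 4.2x, and 1, 1 and 4 at 1 mW and 1x. It had between 1 and 4 in the 8 libraries of 30 and 180 s, and reached at least 19 at 680 s except at 1 mW and 1x. Its scaled change was 1.19 ± 0.34 (limma adjusted p = 0.034), and it passed in 13 of 19 alternatives, with a limma adjusted p of up to 0.12. Fbxl7 had 47, 68 and 91 at 2.6 mW and 4.2x, 16, 24 and 79 at 2.6 mW and 1x, 19, 16 and 55 at 1 mW and 4.2x, and 2, 2 and 26 at 1 mW and 1x. The 680 s libraries (26 to 91) overlapped the 30 s libraries (2 to 47). Its scaled change was 0.73 ± 0.20 (limma adjusted p = 0.026), and it passed in 14 of 20 alternatives, with a limma adjusted p of up to 0.10.

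Klhl42, an adaptor that targets katanin, moved the other way. It had 40, 37 and 42 at 2.6 mW and 4.2x, 32, 22 and 34 at 2.6 mW and 1x, 30, 12 and 27 at 1 mW and 4.2x, and 6, 3 and 9 at 1 mW and 1x. As deposited its values at 680 and 30 s were close within each series, a change of 0.11 ± 0.36 (limma adjusted p = 0.78), so relative to the library it fell by 0.98 ± 0.22 on the log2 scale (limma adjusted p = 0.011).

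**Figure D4:**
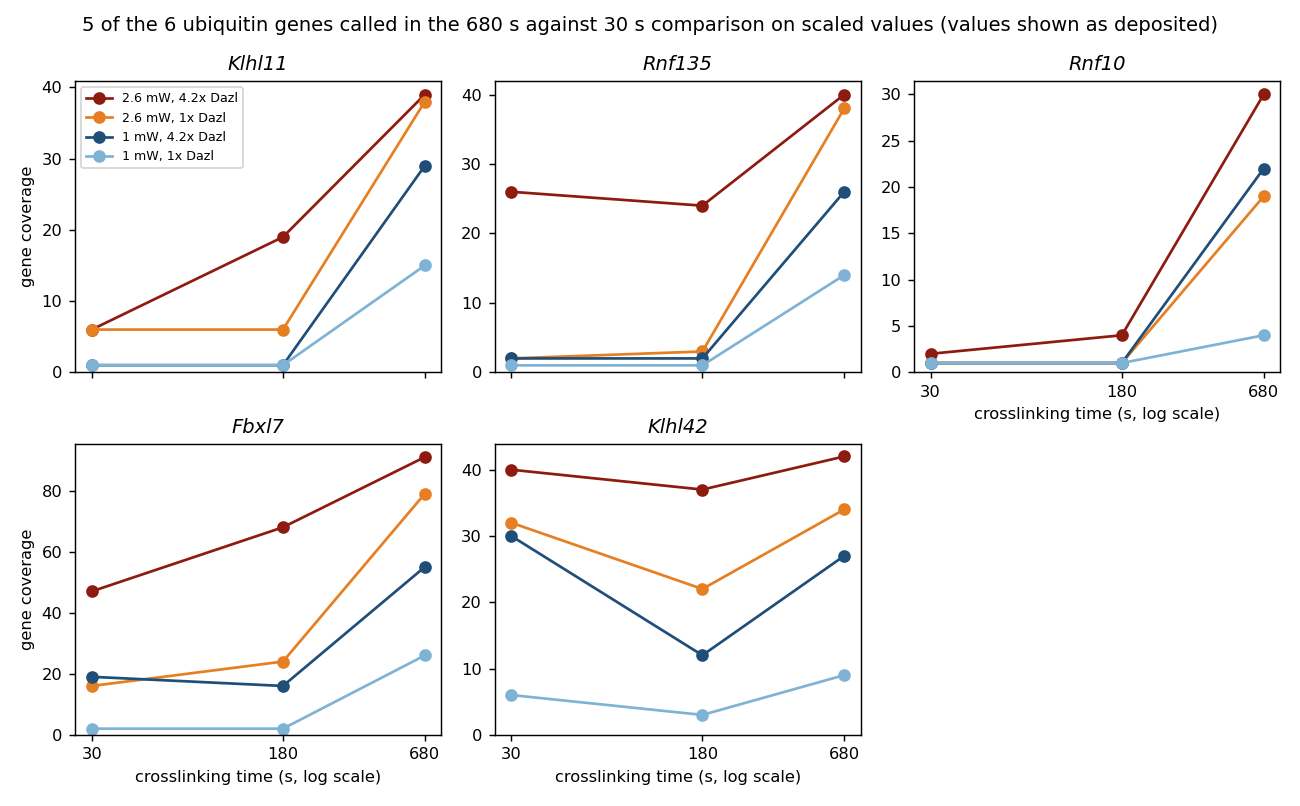
Coverage as deposited (vertical, from 0) against crosslinking time (horizontal log axis) for 5 of the 6 genes called in the 680 s against 30 s comparison on scaled values, with 1 line per series of laser power and Dazl level. Klhl11, Rnf135, Rnf10 and Fbxl7 end at 39, 40, 30 and 91 at 680 s, 2.6 mW and 4.2x, while Klhl42 has 42 at 680 s and 40 at 30 s there.

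Klhl11, Rnf135 and Fbxl7, among the 5 genes that rose on scaled values, had their regions close to the 5' end. How many of all genes that rose have such regions was not counted. Of all regions with a known strand, 6.60% lay within 1000 nt of the 5' end. The region of Klhl11 lay 7 nt from the 5' end, and those of Fbxl7 186 and 251 nt. That of Rnf135 is counted as 0 nt, the value given to a region that begins at or before the end of the gene span. The region of Rnf10 lay 23808 nt from the 5' end. The regions of Fbxw7, Usp25 and Usp10 also lay within 1000 nt of the 5' end, at 375, 376 and 426 nt. Fbxw7 had 20 at both 680 and 30 s at 2.6 mW and 4.2x, and 9 at 680 s and 1 at 30 s at 1 mW and 1x. Usp25 had 33 at both times at 2.6 mW and 4.2x, and 11 at 680 s and 1 at 30 s at 1 mW and 1x. Neither passed at 680 s against 30 s as deposited or on scaled values. Usp10 had 24 at 680 s and 22 at 30 s at 2.6 mW and 4.2x, but 16 at 680 s and 1 at 30 s at 2.6 mW and 1x, 13 at 680 s and 7 at 30 s at 1 mW and 4.2x, and 7 at 680 s and 1 at 30 s at 1 mW and 1x. It rose as deposited (1.09, limma adjusted p = 0.0014) and did not pass on scaled values (0.28, limma adjusted p = 0.58). Over all genes, regions within 1000 nt of the 5' end with at least 10 at 680 s had a median of 65.9% of that value at 30 s at 2.6 mW and 4.2x (320 regions), and regions within 1000 nt of the 3' end 93.7% (2102 regions). For the ubiquitin genes these medians were 84.1% (7 regions) and 91.8% (49 regions). At 2.6 mW and 1x they were 15.8% near the 5' end (7 regions) and 46.3% near the 3' end (48 regions) for the ubiquitin genes, and 26.3% and 42.9% for all genes. At 1 mW and 4.2x they were 31.5% (6 regions) and 54.7% (42 regions) for the ubiquitin genes, and 40.0% and 48.3% for all genes. At 1 mW and 1x they were 7.14% (5 regions) and 10.0% (21 regions) for the ubiquitin genes, and 9.09% and 10.0% for all genes. The median was thus lower near the 5' end than near the 3' end in each of the 4 series for both sets. At 1 mW and 1x, all 5 of these ubiquitin regions near the 5' end stood at 1 at 30 s, the lowest listed value. Their share there follows from the 680 s value alone and says little about their time course. Regions farther than 1000 nt from both ends were also lower than those near the 3' end in each series. At 2.6 mW and 4.2x their median was 66.7% (55 regions) for the ubiquitin genes, below that near the 5' end, and 79.4% for all genes, above it. In the other series the ubiquitin median away from both ends lay above that near the 5' end. This is a description over few ubiquitin regions with no test.

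The share of the 680 s value that was present at 30 s depended on the series. Its median over the 71 genes was 70.2% at 2.6 mW and 4.2x, 42.3% at 2.6 mW and 1x, 50.0% at 1 mW and 4.2x, and 18.0% at 1 mW and 1x, against 68.8%, 45.9%, 50.0% and 18.2% for all genes. At 2.6 mW and 4.2x, 63 genes reached at least 10 at 680 s, and 17 of these showed an identical value at 30 s (27.0%), as did 23.4% of all genes that reached it. These included Cul4a, Rnf44, Trim2, Trim66, Usp4, Usp24 and Usp25. At the other extreme, Usp40 had 1 at 30 and 180 s in every series and 16, 14, 10 and 5 at 680 s.

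Regions within a gene also differed in their time course. At 2.6 mW and 4.2x, 143 regions reached at least 10 at 680 s. Of these, 66 were identical at 30 s (46.2%), against 45.6% for all genes. In this series 0 of 162 regions were lower at 680 s, and 0 of the 7837 regions of all genes. Identical values made up 3.60% at 2.6 mW and 1x, 3.17% at 1 mW and 4.2x, and 0.0% at 1 mW and 1x. For all genes these shares were 1.53%, 2.56% and 0.318%. In these series 11, 9 and 2 of 162 regions were lower at 680 s, against 627, 582 and 67 of 7837. How the authors' processing may have linked the libraries was not stated, and each p-value here takes the libraries as independent. At 2.6 mW and 4.2x, 6 of 11 regions of Ube2b were equal at both times. Its region at chr11:51986394-51986410 had 28 at 680 s and 6 at 30 s. The next region toward the 5' end, at chr11:51986487-51986503, had 82 at 680 s and 43 at 30 s. In Rnf128, 4 of 10 regions were equal, and the strongest region, at chrX:139672943-139672964, had 104 at 680 s and 66 at 30 s. All regions of Rnf128, Rnf4 and Rnf6 and 10 of 11 of Ube2b lay within 3000 nt of the 3' end.

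**Figure D5:**
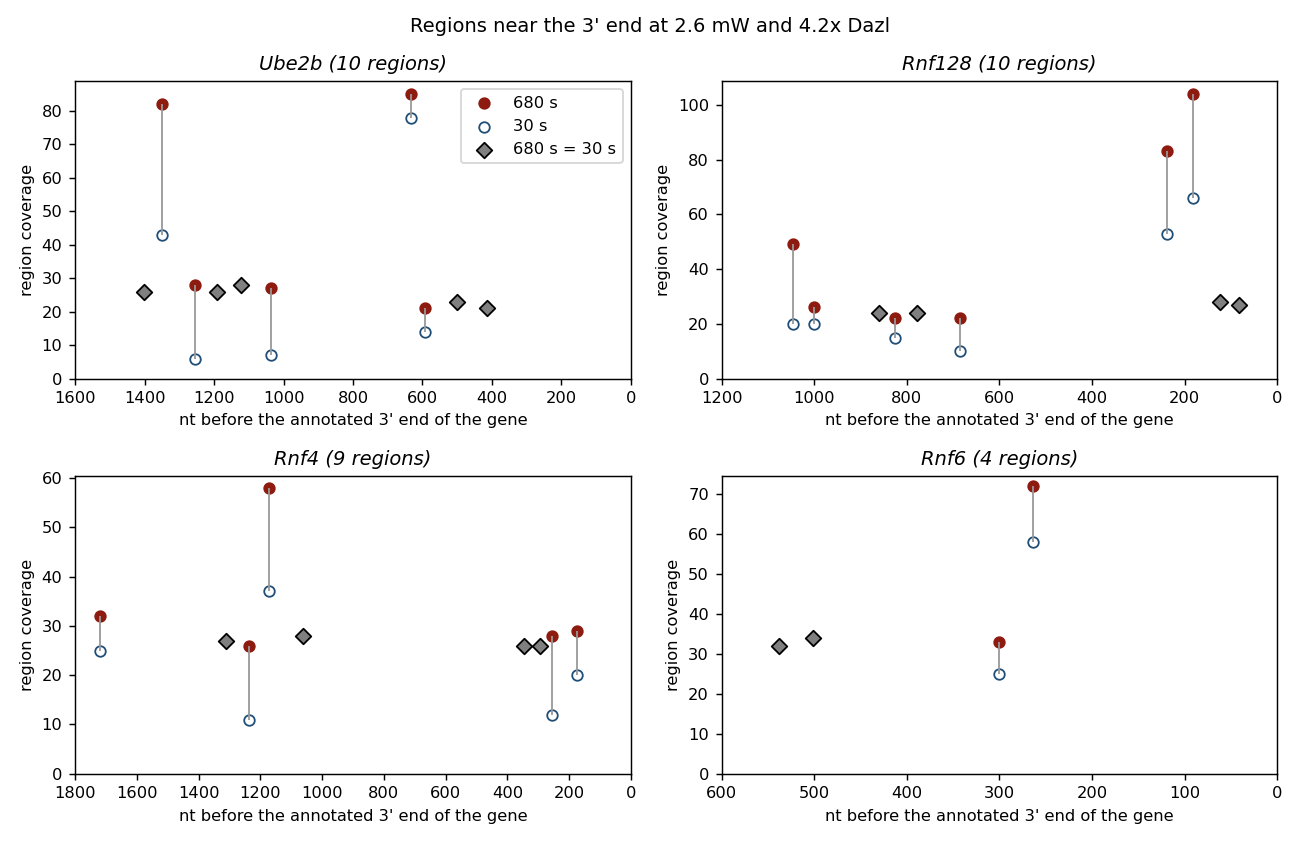
Coverage of each region (vertical, from 0) against its distance in nt before the annotated 3' end (horizontal) for Ube2b, Rnf128, Rnf4 and Rnf6 at 2.6 mW and 4.2x, with filled circles for 680 s, open circles for 30 s and diamonds where both are equal. Equal regions and regions higher at 680 s lie side by side within each gene, and Ube2b and Rnf128 hold their strongest regions at 85 and 104 at 680 s.

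Wide contrasts within a gene were also found in Ube3b and Fbxl7. Of the 4 regions of Ube3b, the one at chr5:114402571-114402587 had 36 at 680 s and 3 at 30 s at 2.6 mW and 4.2x, whereas those at chr5:114398843-114398859 and chr5:114419947-114419963 had 42 and 28 at both times. In Fbxl7 the region at chr15:26895362-26895378 had 47 at 680 s and 10 at 30 s, and its neighbour at chr15:26895297-26895313 had 44 at 680 s and 37 at 30 s. In Rnf44 and Trim66 all 3 regions of each gene were equal at 680 and 30 s. The sum over a gene can thus combine regions of different time course.

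Genes that work with the ubiquitin enzymes but lie outside the 10 families were described in the same way. Of 109 listed genes (ubiquitin and E1 enzymes, other ligases, cullin partners, and other deubiquitinases and ubiquitin receptors), 40 had a region. In limma as deposited 33 of the 40 rose with Dazl level (82.5%, against 82.4% of all genes), 39 with laser power (97.5%, against 93.4%) and 29 at 680 s against 30 s (72.5%, against 73.0%), and 0 fell. These shares are near those of all genes. Among the highest were Rbx1, the RING subunit of most cullin ligases (mean 272.7), the HECT ligase Nedd4 (185.1), the F-box partner Skp1 (153.8) and Vhl, which targets hypoxia-inducible factors (91.8). On scaled values 3 rose at 680 s against 30 s (7.5%, against 9.74% of all genes). Among them were the SUMO-activating subunit gene Uba2 (1.55 ± 0.29, limma adjusted p = 0.0050) and the ligase gene Arih2 (1.05 ± 0.31, limma adjusted p = 0.037), and both had a single region.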

How the data were processed

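The deposited values are scores, named normalized coverage by the authors: whole numbers of at most 24 per position, with neither strand nor header. FastQC, Bowtie2 and the mm10 build were used, per the submitters' processing notes, with no versions. Read counting and normalization were not given in the sources used here. Depth in reads is therefore unknown, and no counting interval is given. Gene coverage per library ran from 10614 to 237858.

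Joining listed intervals separated by 10 nt or less gave 8338 regions. A single gene span held 7592 of them, and 245 overlapped several genes of which 1 was coding; both kinds were used. The remaining 314 (several genes) and 187 (no gene) were not used. Genes were fitted with limma 3.58.1 in R 4.3.3 on log2(value + 3), with time as a factor plus laser and Dazl terms (7 residual degrees of freedom, eBayes with trend and robust). P-values were adjusted by Benjamini-Hochberg over 3202 genes, on values as deposited and on libraries scaled to equal gene totals. The median prior degrees of freedom were 106.4 as deposited and 11.0 scaled. The Dazl term on scaled values was tested on simulated data, drawn independently for each library around the additive fit. That test does not cover the links between libraries described above. Tables were made with Python 3.11.15.

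Genes and lists were chosen with earlier results of these data known. Genes to name were taken from the 12 genes of highest mean coverage, the highest of each family, per comparison the 5 largest scaled changes in each direction among genes with a mean of at least 10, every gene called on scaled values, and the 5 highest pathway genes, and not every gene of these sets is described. Others (such as Trim21, Usp40, Usp4, Ube2k and Usp10) were chosen after their values were seen. No sequence or exon annotation beyond the start windows was used here, so untranslated regions were not assigned. Some genes that the families or lists include are not reported here.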

Additional observations from a re-analysis of the deposited data

Results flagged for a closer look

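One result stood out between groups. For Trim21 the 2.6 against 1 mW change differed between times. At 680 s both pairs were higher at 2.6 mW, with a mean log2 ratio of 0.50, and at 30 s both pairs were lower at 2.6 mW, with a mean of -1.02. The difference is 1.52 on the log2(value + 3) scale, from 2 pairs at each time, and it was not tested. It rests on 1 region with coverage between 1 and 19, and on values of 1 at 2.6 mW and 12 at 1 mW in the 30 s pair with 1x Dazl.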

How the results depend on the processing

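No called change turned its sign under the alternatives run. Median changes of the ubiquitin genes near 0 did: on scaled values they ran from -0.07 to 0.02 for Dazl level, from -0.12 to 0.01 for laser power, from -0.06 to 0.02 for 680 s and from -0.01 to 0.15 for 180 s against 30 s, and as deposited from -0.64 to 0.02 for the interaction. Leaving out 1 library at a time gave 55 to 63 genes for Dazl level, 64 to 69 for laser power and 37 to 63 for 680 s against 30 s as deposited, and 0 to 0, 0 to 1 and 2 to 9 on scaled values. The shares of all genes called moved as well, from 69.5% to 81.9%, from 87.1% to 94.0% and from 52.4% to 82.0% as deposited. On scaled values they ran from 0.0% to 1.56%, from 0.0% to 1.03% and from 3.72% to 14.9%. With 1 library left out, 180 s against 30 s gave 0 to 0 on both scales, and 0.0% of all genes. The interaction gave 0 to 20 as deposited and 0 to 34 on scaled values, against 0.0% to 26.9% and 0.0312% to 48.0% of all genes. The count of 6 genes for time on scaled values (5 higher, 1 lower) became 2 or 3 with any of 6 libraries left out, those of 30 or 680 s at 2.6 mW and 4.2x, at 2.6 mW and 1x, or at 1 mW and 4.2x. It was 3 for genes with a mean of at least 10 (6.12%, against 8.67% of all such genes) and 3 with a slope on log2 time (4.23%, against 8.34% of all genes). With quantile normalization it was 14 (7 higher, 7 lower), or 19.7%, against 22.4% of all genes. Klhl11 and Klhl42 passed in 20 of 20 alternatives, Fbxl7 in 14 of 20, Rnf10 in 13 of 19 and Rnf135 in 11 of 20. As deposited, the slope gave 28 genes, against 51. Without the 30 s libraries 27 genes passed for Dazl level, against 62. Without the 680 s libraries 1 passed for laser power on scaled values (1.41%, against 2.03% of all genes), where the full set gave 0. The interaction then gave 20 as deposited and 38 on scaled values, where the full set gave 0. These are 28.2% and 53.5% of the ubiquitin genes, against 18.1% and 54.7% of all genes. The interaction on scaled values also gave 12 with the 680 s library at 2.6 mW and 1x left out. Where these counts changed, the cause was not tested. For single named genes 4445 results kept direction and side of the threshold, 142 lost the call and 31 gained it. No replicate block was fitted, because each condition has 1 library and the labels carry no replicate numbers; libraries matched in the other factors were compared through the additive fit. Limits are the single library per condition, the unknown read depth, the missing strand, the links between libraries described above, and the many genes near the lowest value, where 46 of 71 stood at 1 per region at 30 and 180 s, 1 mW and 1x.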

Other observations

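A total of 8 regions lay in the span of a ubiquitin gene and of another coding gene and were left out of the sums. They belong to Usp37 and Cnot9 (3 regions), Bace1 and Rnf214 (2), Fbxl2 and Ubp1 (2), and Fbxl14 and Wnt5b (1). Usp37, Rnf214 and Fbxl14 have no other region and are not among the 71 genes. The strongest of the 8, in Fbxl2 and Ubp1 at chr9:113977159-113977202, had 65, 71 and 87 at 30, 180 and 680 s at 2.6 mW and 4.2x, 44, 36 and 72 at 2.6 mW and 1x, 34, 25 and 61 at 1 mW and 4.2x, and 4, 3 and 31 at 1 mW and 1x. Its mean of 44.4 exceeded the mean of 21.4 of the region given to Fbxl2 alone.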
